A study of Homo sapiens with 3 samples.

Results

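Transcript levels of 9 genes of epidermal growth factor receptor (EGFR) signalling were examined: the receptors EGFR, ERBB2 and ERBB3, the ligands AREG, EREG, TGFA and HBEGF, the inhibitor ERRFI1, and the separate receptor MET. They were found by gene symbol, and all 9 were listed in each library, out of 18856 genes listed in at least 1 library. PolyA+ mRNA of 2 human lines was sequenced, and the labels name no treatment. HBE is a line of bronchial epithelial cells, and A549 is a line from a lung adenocarcinoma that the labels call alveolar basal epithelial. About 10 pg of polyA+ mRNA, diluted from bulk RNA, went into each library. HBE and A549 were each sequenced once by LIEA (low-input, equal-amplification). In LIEA, fragmented mRNA receives adapters, its cDNA is amplified by a limited number of PCR cycles, and molecules are then amplified on separate beads for the Ion Torrent sequencer. HBE was also sequenced once by Smart-seq2 (full-length cDNA pre-amplified by PCR, for an Illumina sequencer). With 1 library per condition there was no replicate error and no p-value. Differences were read against a fixed size of 2-fold and against counting error, which leaves out the error of culture, dilution and amplification.

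EGFR, ERBB2 and ERBB3 are receptor tyrosine kinases that act in pairs. EGFR binds AREG, EREG, TGFA and HBEGF, which are made as membrane proteins and released by proteases, while ERBB2 has no known soluble ligand and ERBB3 binds neuregulins and has little kinase activity of its own. ERRFI1 (also called MIG6) is induced by the pathway and binds the EGFR kinase domain to inhibit it, and MET is the receptor of hepatocyte growth factor. In airway epithelium EGFR signalling is known for its part in growth and in the repair of wounds.

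The libraries held 4605855 mapped reads for HBE by LIEA, 4154060 for A549 by LIEA and 9845150 for HBE by Smart-seq2, and between 12285 and 12896 genes had at least 10 reads. Values are log2 rpkM (reads scaled to transcript length in kilobases and to the mapped reads of the library). This allows for length when genes of a library are compared, but the methods still differed with GC content and length, as given below. The epithelial genes EPCAM, CDH1, KRT8, KRT18 and KRT19 were listed in each library, but within LIEA EPCAM and CDH1 were 7.84-fold and 2.95-fold lower in A549 and KRT8 and KRT18 were 7.82-fold and 5.79-fold higher. Of the bronchial basal genes, KRT5 was at 9.11 and 8.67 log2 rpkM in HBE by LIEA and by Smart-seq2 and at 0.91 in A549. TP63 was at 4.96, 3.84 and 2.14 in the same order. KRT14 was listed in HBE alone, at 2.55 log2 rpkM by LIEA and 4.68 by Smart-seq2. Its recovered reads, 11 and 103, rest on a length of 409 bases, while the nearest annotated transcript has 1636. The reads may thus be too few by a whole factor, which leaves rpkM unchanged. Within LIEA KRT14 was at least 3.31-fold lower in A549 against a floor of 3 reads, a bound that would rise with the reads. The alveolar markers did not set A549 apart, since SFTPC was not listed in any library, NKX2-1 was not listed in A549, and SFTPB had 20 reads there against 21 in HBE by LIEA. Of 7 markers of blood, endothelium and fibroblasts, 3 to 4 were listed in each library, with a summed level of 18.2 rpkM in HBE and 4.48 in A549 by LIEA and 12.4 in HBE by Smart-seq2. COL1A2 and DCN were not listed in any library. COL1A1 had 175 and 85 reads in HBE by LIEA and by Smart-seq2 and 93 in A549. The endothelial gene CDH5 had 103 and 180 reads in HBE and was not listed in A549. The part of these markers in the differences below was not tested. As the RNA came from bulk cultures, fewer cells of a type and less RNA per cell cannot be told apart.

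Between the lines, the largest differences were those of EREG, ERRFI1, TGFA and HBEGF. TGFA, HBEGF and AREG were lower in A549, EREG was higher, and ERRFI1 was 13.1-fold higher. EGFR was 2.64-fold lower, while ERBB2 and ERBB3 were at nearly the same level in both lines. Of the 8 genes with at least 10 reads in both LIEA libraries, 5 differed by at least 2-fold, 1 higher and 4 lower, where 30.6% of all 11262 such genes did, 13.4% higher and 17.2% lower. The median difference of the 8 genes was -0.89 log2, and that of all genes was -0.16. With this shift removed the AREG difference was -0.98 log2 and lay within 2-fold, which left 4 genes.

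**Figure D1:**
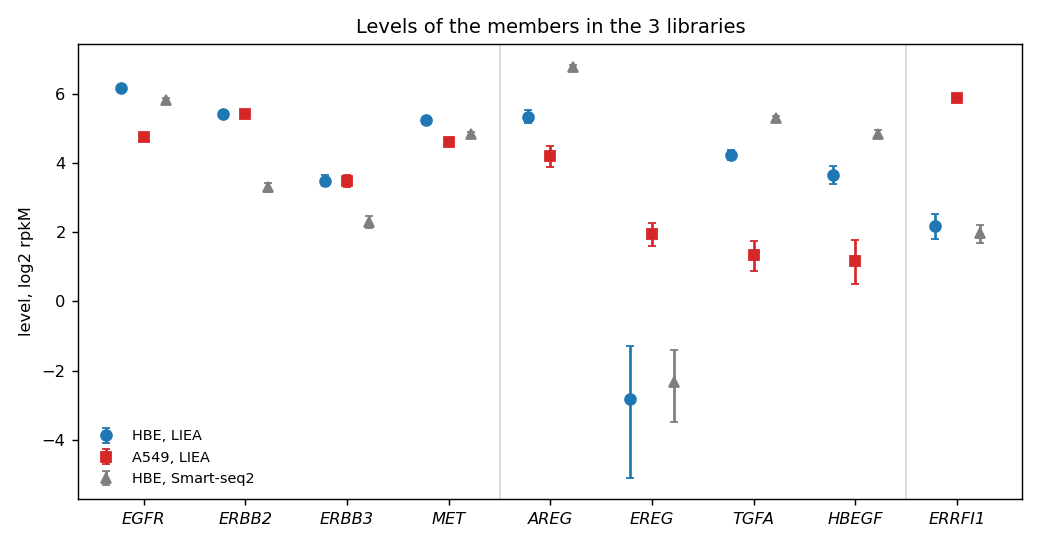
Level of each gene (log2 rpkM, vertical axis) in HBE by LIEA (circles), A549 by LIEA (squares) and HBE by Smart-seq2 (triangles), with receptors, ligands and ERRFI1 separated by vertical lines and bars for the exact 95% Poisson interval of the reads. TGFA and HBEGF are lowest in A549, EREG and ERRFI1 are highest there, and ERBB2 and ERBB3 are lowest in Smart-seq2.

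The ligand genes lie in different places. In GRCh37 (hg19, the build in the submitters' processing notes; GENCODE annotation), TGFA is at chr2:70674416-70781325 on the minus strand and HBEGF at chr5:139712428-139726188 on the minus strand. EREG (chr4:75230862-75254466) and AREG (chr4:75310853-75320722) are neighbours on the plus strand of chromosome 4, 56.4 kb apart, between the further ligand genes EPGN and BTC. The neighbours AREG and EREG differed in opposite directions between the lines, and TGFA and HBEGF in the same direction, so the 250 bases before the start of these 4 genes are given below from RefSeq (GRCh38.p14), 5' to 3' on the strand of the gene. Capitals mark matches to any of 4 motifs, searched on both strands. They are the CRE, the palindromic site of CREB proteins, spelled TGACGTCA, the TATA box, spelled TATAAA, the CCAAT box, which is named by its letters, and the GC box, spelled GGGCGG. The site of AP-1, with the letters TGANTCA, was searched too and was in none of the 4 windows. TGFA has a second annotated start, whose window held none of the 5 motifs.
AREG, chr4:74444886-74445135, plus strand: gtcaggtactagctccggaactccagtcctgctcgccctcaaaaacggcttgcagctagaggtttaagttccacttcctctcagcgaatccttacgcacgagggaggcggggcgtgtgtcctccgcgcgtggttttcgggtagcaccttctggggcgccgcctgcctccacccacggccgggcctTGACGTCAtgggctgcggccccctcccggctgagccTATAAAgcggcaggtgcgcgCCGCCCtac
EREG, chr4:74364895-74365144, plus strand: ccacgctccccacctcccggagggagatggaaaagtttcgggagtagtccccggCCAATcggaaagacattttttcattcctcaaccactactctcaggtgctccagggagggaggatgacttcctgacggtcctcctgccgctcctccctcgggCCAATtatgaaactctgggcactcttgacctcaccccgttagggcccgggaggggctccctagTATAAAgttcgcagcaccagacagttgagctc
TGFA, chr2:70553827-70554076, minus strand: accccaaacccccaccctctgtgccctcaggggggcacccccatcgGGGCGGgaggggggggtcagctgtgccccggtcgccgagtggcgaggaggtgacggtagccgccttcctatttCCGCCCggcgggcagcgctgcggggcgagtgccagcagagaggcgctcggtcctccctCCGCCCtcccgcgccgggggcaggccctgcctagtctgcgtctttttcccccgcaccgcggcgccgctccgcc
HBEGF, chr5:140346604-140346853, minus strand: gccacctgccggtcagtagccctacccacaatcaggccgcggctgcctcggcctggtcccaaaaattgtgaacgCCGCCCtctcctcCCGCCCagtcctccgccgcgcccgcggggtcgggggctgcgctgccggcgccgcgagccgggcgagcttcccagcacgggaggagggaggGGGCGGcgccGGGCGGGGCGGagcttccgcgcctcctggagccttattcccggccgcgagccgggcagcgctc

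The AREG window held a CRE whose first base is 65 bases before the start, a TATA box at 29 bases and a GC box at 9 bases. The EREG window held a TATA box at 32 bases and CCAAT boxes at 95 and 196 bases. The TGFA window held GC boxes at 204, 131 and 73 bases and no TATA box, and that of HBEGF held GC boxes at 176, 163, 73, 63 and 58 bases, the last 2 of which share 1 base, and no TATA box. Of 35116 promoter windows of that length, 1.65% held the CRE, 10.7% the TATA box, 32.0% the CCAAT box, 42.6% the GC box and 6.57% the AP-1 site. These are matches of letters, and no binding was measured.

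TGFA, transforming growth factor alpha, was at 4.24 log2 rpkM in HBE by LIEA (375 reads), 1.33 in A549 by LIEA (45 reads) and 5.30 in HBE by Smart-seq2 (1669 reads). A549 lay below both HBE libraries, and the LIEA difference of -2.91 log2 (95% interval -3.39 to -2.46) was a 7.52-fold lower level. Only 1.37% of the genes compared had a lower difference. HBEGF, heparin-binding EGF-like growth factor, was at 3.66 log2 rpkM (137 reads), 1.17 (22 reads) and 4.84 (666 reads) in the same order. It was again lowest in A549, the difference from HBE by LIEA was -2.49 log2 (-3.21 to -1.83), or 5.62-fold, and 2.13% of genes had a lower one. TGFA fell from above 68.0% of the genes with at least 10 reads in HBE by LIEA to above 18.2% in A549, and HBEGF from above 57.5% to above 16.1%.

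AREG, amphiregulin, was at 5.34 log2 rpkM in HBE by LIEA (238 reads), 4.19 in A549 (97 reads) and 6.76 in HBE by Smart-seq2 (1363 reads). A549 was the lowest, but the LIEA difference of -1.15 log2 (-1.50 to -0.80), a 2.21-fold lower level, had an interval that reached to within 2-fold. AREGB, a copy of AREG at chr4:75480629-75490486 of GRCh37, is 99.9% identical to it over 1234 transcript bases and was not listed, so reads of the pair cannot be told apart.

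EREG, epiregulin, had 3 reads in HBE by LIEA, 9 in HBE by Smart-seq2 and 74 in A549. These were -2.83, -2.34 and 1.94 log2 rpkM, so that A549 was above both HBE libraries. The ratio of A549 to HBE by LIEA was 27.3 with a counting interval of 9.0 to 136, but EREG was left out of the count of 2-fold differences because HBE had fewer than 10 reads. With a pseudocount of 1 rpkM its difference was 2.09 log2 in place of 4.77. The further EGFR ligands were near the limit of detection in both LIEA libraries, with 7 reads in HBE and 8 in A549 for EGF, 6 and 2 for BTC, and 3 and 7 for EPGN. In HBE by Smart-seq2 BTC and EPGN had 78 and 48 reads, and EGF had 1.

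The mix of the 4 ligands therefore differed between the lines. AREG made up 56.1% of their summed rpkM in HBE by LIEA, 68.0% in A549 and 61.4% in HBE by Smart-seq2, and was the largest part of the rpkM in each. By reads, which also scale with transcript length, TGFA was the largest part in both HBE libraries. TGFA made up 26.2%, 9.34% and 22.3%, and HBEGF 17.5%, 8.35% and 16.2%, so both were smallest in A549. EREG was 0.195% and 0.112% in the HBE libraries and 14.3% in A549, where it ranked above TGFA and HBEGF, although its interval (3.02 to 4.83 rpkM) overlapped those of TGFA (1.83 to 3.36) and HBEGF (1.41 to 3.40).

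**Figure D2:**
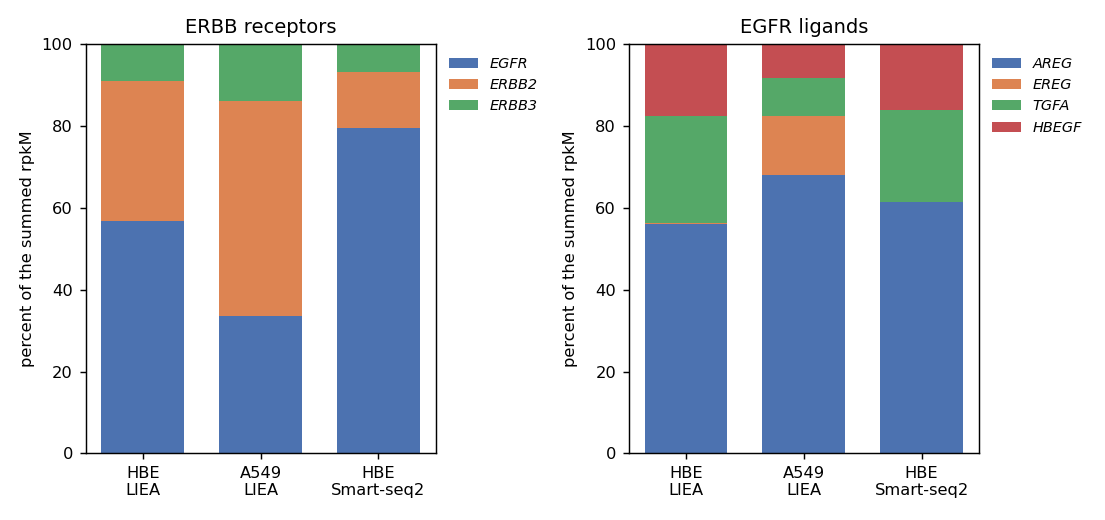
Percent of the summed rpkM (vertical axis) of the receptors EGFR, ERBB2 and ERBB3 (left) and of the ligands AREG, EREG, TGFA and HBEGF (right) in each library. ERBB2 is the largest receptor part in A549 and EGFR in both HBE libraries, and EREG is visible in A549 alone, at 14.3%.

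Among the receptors, EGFR was at 6.15 log2 rpkM in HBE by LIEA (1835 reads), 4.75 in A549 (628 reads) and 5.82 in HBE by Smart-seq2 (3120 reads). The HBE libraries lay together and A549 was lower, with a difference of -1.40 log2 (-1.53 to -1.27) within LIEA. EGFR was above 91.9% of genes in HBE by LIEA and above 78.9% in A549. The gene spans chr7:55086710-55279321 of GRCh37 on the plus strand, and its exons overlap those of the antisense gene EGFR-AS1.

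ERBB2 was at 5.42 log2 rpkM in HBE by LIEA (971 reads), 5.40 in A549 (863 reads) and 3.29 in HBE by Smart-seq2 (475 reads). The LIEA libraries differed by -0.02 log2 (-0.16 to 0.11), and this sign turned to 0.14 when the median of all genes was set to 0. ERBB3 was at 3.49 (298 reads), 3.49 (269 reads) and 2.29 log2 rpkM (277 reads), and its LIEA difference was 0.00 (-0.24 to 0.24). For both genes the counting interval kept the difference between the lines under 2-fold, and the Smart-seq2 library of HBE was the one that stood apart. ERBB2 lies at chr17:37844167-37886679 and ERBB3 at chr12:56470583-56497289 of GRCh37, both on the plus strand, and ERBB2 shares exonic bases with MIEN1 and PGAP3 on the opposite strand. Whether strand was used in counting is not given in the sources used here.

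EGFR led the 3 ERBB receptors in both HBE libraries and ERBB2 led them in A549, which was measured by LIEA alone. EGFR made up 56.8% of their summed rpkM in HBE by LIEA, 79.4% in HBE by Smart-seq2 and 33.6% in A549. ERBB2 made up 34.2%, 13.7% and 52.5%, and ERBB3 8.98%, 6.86% and 14%. The share of ERBB2 in HBE thus lay between 13.7% and 34.2% in the 2 libraries, which differ in method and are 1 each. The order in A549 holds for its LIEA library only. ERBB4, the remaining receptor of the family, had 1 read in HBE by Smart-seq2 and none in the LIEA libraries, where a count of 0 allows up to 3 reads.

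MET was at 5.25 log2 rpkM in HBE by LIEA (1171 reads), 4.62 in A549 (680 reads) and 4.83 in HBE by Smart-seq2 (1867 reads). Its difference between the lines of -0.64 log2 (-0.77 to -0.50), or 1.55-fold, was larger than counting error and under 2-fold, and 30.1% of genes had a lower one. MET was at 0.535 of the rpkM of EGFR in HBE by LIEA, 0.908 in A549 and 0.502 in HBE by Smart-seq2. In A549 the intervals of EGFR (24.9 to 29.2 rpkM) and MET (22.7 to 26.4) overlapped. MET lies at chr7:116312250-116438431 of GRCh37 on the plus strand.

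ERRFI1 was the member with the largest difference between the lines among those with at least 10 reads in both. It was at 2.17 log2 rpkM in HBE by LIEA (65 reads), 5.88 in A549 (768 reads) and 1.96 in HBE by Smart-seq2 (120 reads). The HBE libraries differed by 0.21 log2 (-0.25 to 0.66), and A549 was above HBE by LIEA by 3.71 log2 (3.35 to 4.10), a ratio of 13.1 (10.2 to 17.1). Of all genes, 99.2% had a lower difference. ERRFI1 rose from above 29.3% of genes in HBE by LIEA to above 90.8% in A549, where it was the highest of the 9 genes. The gene lies at chr1:8064464-8086369 of GRCh37 on the minus strand.

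The ratio of ERRFI1 to EGFR, in rpkM, was 0.0634 in HBE by LIEA and 0.0688 in HBE by Smart-seq2, and 2.19 in A549. The HBE libraries thus had 15.8 and 14.5 times as much EGFR as ERRFI1, and A549 had less EGFR than ERRFI1. The summed rpkM of the 4 ligands was 1.01 times that of EGFR in HBE by LIEA and 0.997 times in A549, since both sums were lower in A549, and 3.12 times in HBE by Smart-seq2. These ratios within a library do not depend on how the libraries were scaled to each other.

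**Figure D3:**
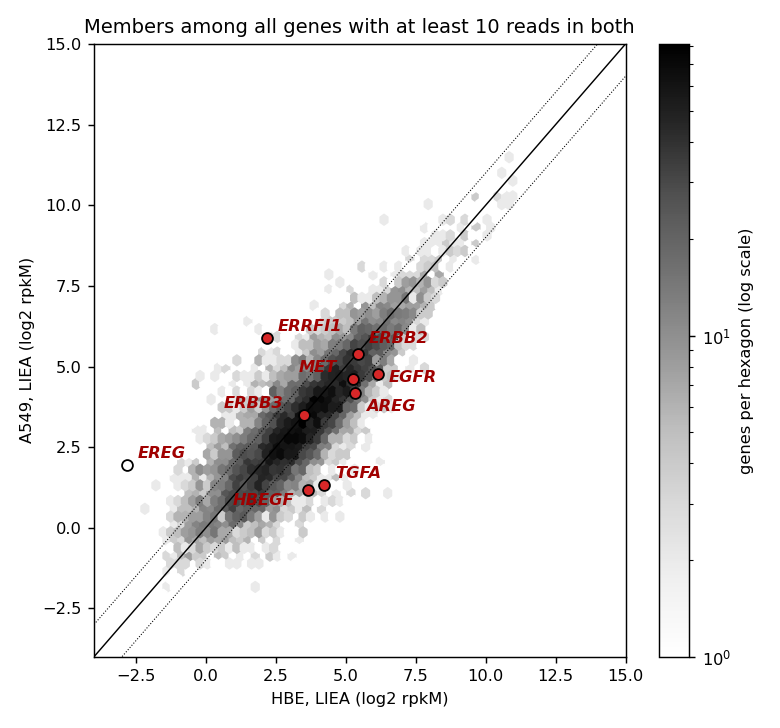
Level in A549 against level in HBE, both by LIEA (log2 rpkM), with grey hexagons for all 11262 genes with at least 10 reads in both (log colour scale), red points for the 8 members among them and an open point for EREG. The solid line marks equal levels and the dotted lines 2-fold, and ERRFI1, TGFA and HBEGF lie farthest outside them among the filled points.

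The order of the 9 genes also differed. In HBE by LIEA, EGFR at 71.1 rpkM was followed by ERBB2 (42.8), AREG (40.5) and MET (38.1), whose neighbouring intervals overlapped, and then by TGFA (18.9), HBEGF (12.6), ERBB3 (11.2), ERRFI1 (4.51) and EREG (0.141), of which HBEGF and ERBB3 overlapped. In A549, ERRFI1 at 59.1 rpkM was followed by ERBB2 (42.2), EGFR (27.0), MET (24.5), AREG (18.3), ERBB3 (11.2), EREG (3.85), TGFA (2.51) and HBEGF (2.25). There EGFR and MET, EREG and TGFA, and TGFA and HBEGF were pairs of neighbours with overlapping intervals. In HBE by Smart-seq2, AREG was first at 108 rpkM, ahead of EGFR (56.6), TGFA (39.3), HBEGF (28.7), MET (28.4), ERBB2 (9.80), ERBB3 (4.89), ERRFI1 (3.90) and EREG (0.198), and the overlapping neighbours were HBEGF and MET, and ERBB3 and ERRFI1.

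Whether the library method changed the picture was asked by comparing LIEA with Smart-seq2 in HBE. ERBB2 and ERBB3 were higher by LIEA and the ligands AREG, TGFA and HBEGF were lower. EGFR, MET and ERRFI1 were within 2-fold. Of the 8 genes with at least 10 reads in both libraries, 5 differed by at least 2-fold, 2 higher and 3 lower, where 47.2% of all 11695 such genes did, 27.7% higher by LIEA and 19.5% lower. The median difference was 0.27 log2 for the 8 genes and 0.10 for all genes, and EREG had too few reads, with a difference of -0.49 log2 (-3.01 to 1.51).

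ERBB2 showed the largest difference between the methods, 2.13 log2 (1.97 to 2.29) or 4.37-fold, followed by AREG at -1.42 (-1.63 to -1.22) or 2.68-fold lower by LIEA. ERBB3 differed by 1.20 log2 (0.96 to 1.44), HBEGF by -1.19 (-1.46 to -0.92) and TGFA by -1.06 (-1.22 to -0.90), and these 3 intervals included 2-fold. EGFR and MET differed by 0.33 (0.25 to 0.41) and 0.42 log2 (0.32 to 0.53). In each of the 3 ligands the difference between the methods was opposite in sign to that of ERBB2 and ERBB3.

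The difference between the methods moved with GC content and length over all genes. Its median went from -0.72 log2 in the lowest of 10 equal bins of genes by GC content to 1.03 in the highest bin, and from -0.43 in the bin of the shortest transcripts to 0.97 in that of the longest. ERBB2 is the most GC-rich of the members, at 59.3%, and AREG, TGFA and MET were at 45.3%, 44.5% and 43.5%. Against the median of its own GC bin, ERBB2 was still higher by LIEA, by 1.36 log2, and by 1.71 against genes of its length. ERBB3 was within 2-fold against genes of its GC content (0.98) and of its length (0.69). TGFA was within 2-fold against genes of its GC content (-0.97) but was at -1.31 against genes of its length. Against genes of the same GC content and length, AREG was at -1.33 and -1.01, HBEGF at -1.41 and -1.10, and EGFR at -0.12 and -0.18.

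**Figure D4:**
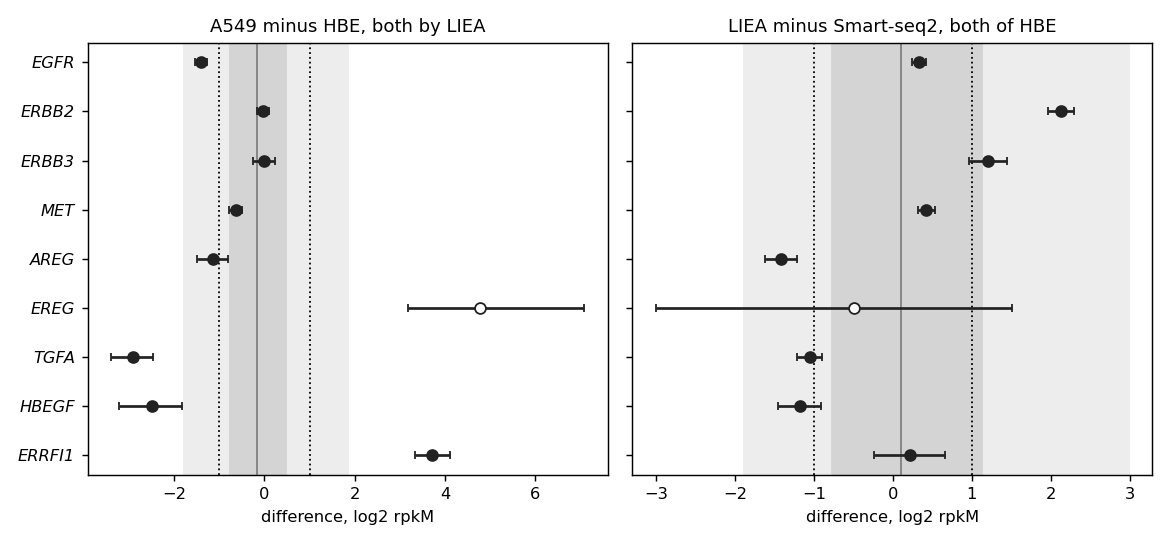
Difference in log2 rpkM (horizontal axis) of each member between A549 and HBE by LIEA (left) and between LIEA and Smart-seq2 in HBE (right), with exact 95% counting intervals, and open points where a library had fewer than 10 reads. Grey bands span the 25th to 75th (dark) and 5th to 95th (light) percentile of all genes, the grey line is their median and dotted lines mark 2-fold. On the left, ERRFI1, TGFA, HBEGF and the open point of EREG lie outside the light band, and on the right no filled point does.

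Because the methods differed this much, A549 was also set against both HBE libraries, which mixes line and method in 1 of the 2 differences. Of the 8 genes with at least 10 reads in all 3 libraries, ERRFI1 was at least 2-fold above both HBE libraries and EGFR, AREG, TGFA and HBEGF were at least 2-fold below both, where 8.73% of all 10876 such genes were above both and 9.92% below both. The smaller of the differences was -1.07 log2 for EGFR, -1.15 for AREG, -2.91 for TGFA, -2.49 for HBEGF and 3.71 for ERRFI1. Those of EGFR and AREG were close to 2-fold, and no counting interval was computed for A549 against HBE by Smart-seq2. MET was below both by less than 2-fold, ERBB2 lay between the HBE libraries, and ERBB3 was level with HBE by LIEA and 1.20 log2 above HBE by Smart-seq2.

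For each of these 8 genes the gene with the most similar levels was taken, by the Euclidean distance over the 3 log2 rpkM values among the 10876 genes. ERBB3 had the closest neighbour, FXR1 at 0.046, followed by ERBB2 with ACIN1 at 0.12, MET with STT3A at 0.14 and EGFR with PACSIN3 at 0.18. AREG was nearest to PSMD6 at 0.22, HBEGF to FRMD6 and ERRFI1 to PMP22 at 0.28 each, and TGFA had the most distant neighbour, the non-coding RNA gene HOTAIRM1 at 0.46. PMP22, for instance, was at 2.29, 5.78 and 2.20 log2 rpkM in HBE by LIEA, A549 and HBE by Smart-seq2.

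A list of 51 further genes of the pathway was read in the same way. Of 39 with at least 10 reads in both LIEA libraries, 8 were at least 2-fold higher in A549, 7 lower and 24 within 2-fold, beside 13.4% of all genes higher and 17.2% lower, with a median of 0.08 log2 against -0.16 for all genes, and the split became 10 higher and 5 lower with the median of all genes set to 0. Against both HBE libraries, 6 of 38 genes were at least 2-fold above (NRG1, RHBDF2, SRC, LRIG1, SPRY2 and SPRY4) and 3 below (FRMD8, GAB1 and SPINT1), beside 8.73% and 9.92% of all genes.

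Of the other ligands, NRG1, a neuregulin that binds ERBB3, was at 1.11 log2 rpkM in HBE by LIEA (32 reads), 4.44 in A549 (291 reads) and 1.81 in HBE by Smart-seq2 (111 reads). A549 was above both, by 3.33 log2 (2.80 to 3.91) within LIEA, beside a level of ERBB3 that did not differ by 2-fold. Of the 5 genes of ligand release, RHBDF2, an iRhom that carries the protease ADAM17 to the cell surface, differed by 1.08 log2 and FRMD8, which stabilises the iRhoms, by -1.61. ADAM17 and ADAM10, the proteases that cut the ligands, differed by 0.13 and 0.60. Of 15 adaptors and effectors, the kinase SRC was higher, by 1.63 log2, and the adaptor GAB1 and the PI3-kinase subunit PIK3R2 were lower, with differences of -1.70 and -1.03.

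Of 13 negative regulators with enough reads, 5 were at least 2-fold higher in A549 and 2 lower, beside 13.4% and 17.2% of all genes. SPRY4 and SPRY2, feedback inhibitors of RAS-ERK signalling, were higher by 1.79 and 1.62 log2, and the ERK phosphatase DUSP6 by 1.63. DUSP6 had 121 reads (2.95 log2 rpkM) in HBE by LIEA and 337 (4.58) in A549, but it was at 4.90 log2 rpkM in HBE by Smart-seq2, above A549. LRIG1, which promotes the degradation of ERBB receptors, was higher by 1.23 log2 and SOCS5 by 1.17, while the ubiquitin ligase CBL and the phosphatase PTPN1 were lower, with differences of -1.39 and -1.36. Against HBE by Smart-seq2 the differences in A549 were 0.68 for CBL, whose direction thus turned, and -0.67 for PTPN1. CBLC, an epithelial relative of CBL, had 213 reads in HBE by LIEA and 482 by Smart-seq2 and was not listed in A549, a level at least 64.0-fold lower against the floor of 3 reads.

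Among the partners of MET, its ligand HGF had 1 read, in A549. SPINT1, an inhibitor of the proteases that activate HGF, had 1042 reads (6.52 log2 rpkM) in HBE by LIEA, 20 (0.96) in A549 and 2965 (6.93) in HBE by Smart-seq2. A549 lay far below both HBE libraries, with a LIEA difference of -5.55 log2 (-6.27 to -4.92). ST14, the protease matriptase, had 2282 reads in HBE by LIEA, 920 by Smart-seq2 and 3 in A549, with a LIEA difference of -9.42 log2 (-11.70 to -7.87), and it was left out of the counts for its few reads. SPINT2, the other inhibitor of this kind, was high in each library, at 8.41, 8.72 and 9.12 log2 rpkM in HBE by LIEA, A549 and HBE by Smart-seq2. MST1R, the receptor related to MET, differed between the lines by -1.11 log2 and CD44 by -0.63, but MST1R was at 4.43, 3.32 and 2.03 log2 rpkM in that order, so that A549 lay between the HBE libraries.

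**Figure D5:**
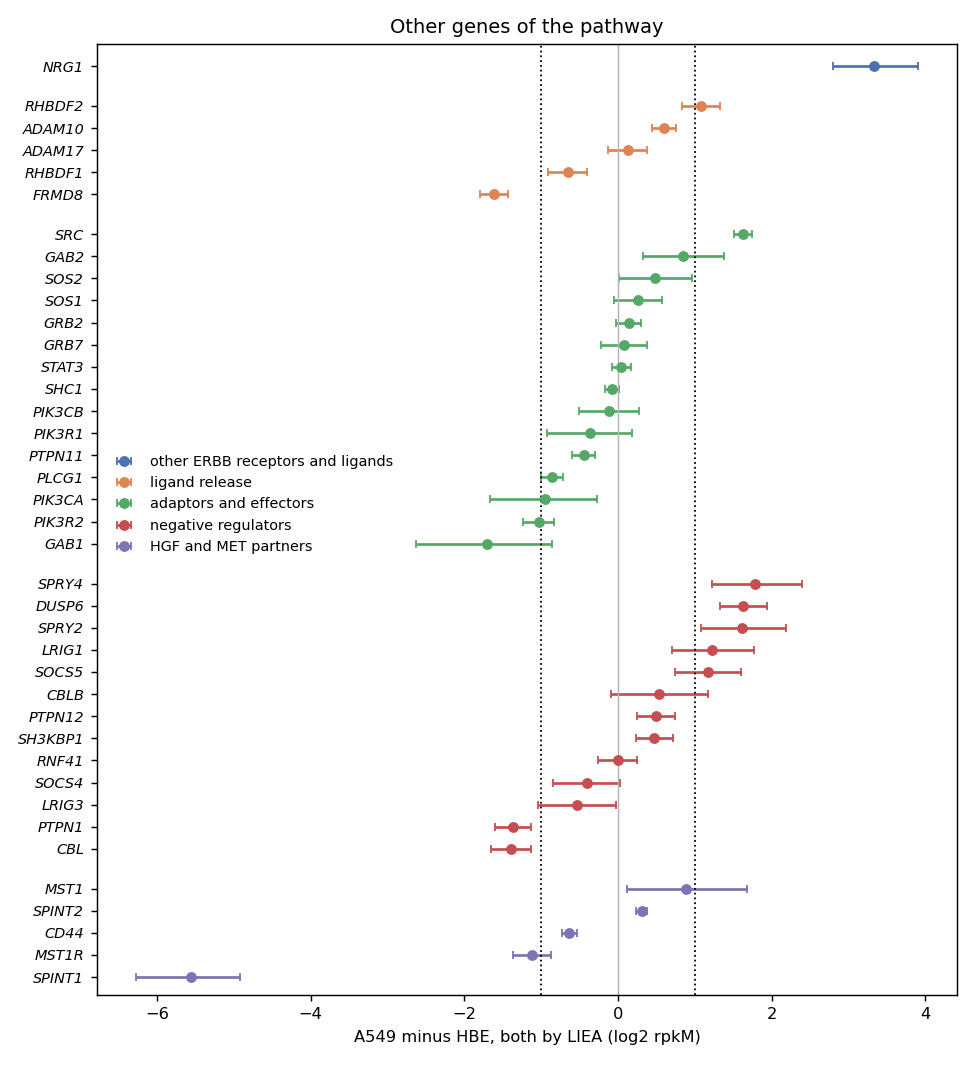
Difference in log2 rpkM between A549 and HBE by LIEA (horizontal axis) of the 39 further pathway genes with at least 10 reads in both, coloured by list, with exact 95% counting intervals and dotted lines at 2-fold. NRG1 is the highest at 3.33 and SPINT1 the lowest at -5.55, and 5 of 13 negative regulators lie above the upper line, as do 13.4% of all genes.

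Between the methods, 13 of 40 of these genes were at least 2-fold higher by LIEA and 4 lower, beside 27.7% and 19.5% of all genes, with a median of 0.43 log2 against 0.10 for all genes. Of the 15 adaptors and effectors 6 were higher and 0 lower, against the same shares of all genes, led by PIK3R2 at 3.61 and PLCG1 at 3.03. In A549 PIK3R2 was below its level in HBE by LIEA and above that in HBE by Smart-seq2, so its direction between the lines depended on the HBE library chosen.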

How the data were processed

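PolyA+ mRNA of HBE and A549 was measured in 3 libraries, 1 per condition, grouped by the labelled cell line and library construction. Per the methods, the authors discarded short or low-quality Ion Torrent reads and aligned the rest to RefSeq-RNA using FANSe2, tolerating more mismatches for Ion Torrent than for Illumina. Variants of a gene were merged, and its log2 rpkM was deposited. The values carry no pseudocount, and a gene without reads has no entry.

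From these values the reads were recovered with Python 3.11.15, numpy 2.4.6 and scipy 1.17.1. The totals were the whole numbers at which genes gave whole transcript lengths, and 99.98% of the listed genes then gave whole reads. Reads and length share an unknown whole factor, which was chosen with GENCODE release 44 transcript lengths and was above 1 for 1003 genes, none of them a member. The recovered reads summed to 97.4% to 97.8% of the totals. The steps were tested on simulated data. In each library 4 rows with repeated, date-like names were left out.

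Differences of log2 rpkM were counted where both libraries had at least 10 reads, past 2-fold. Intervals are exact at the 95% level, binomial (Clopper-Pearson) for ratios of reads and Poisson for levels, and cover counting error only, as PCR copies are not independent molecules. A count of 0 was set to a floor of 3 reads. GC content came from the transcript nearest in length, which for EGFR had 3844 of 5600 bases. Motifs were searched in RefSeq promoter windows, credited to GRCh38.p14. The genes named are the members, the pathway lists and the nearest gene of each member in all 3 libraries. Members and lists were chosen with earlier results of these data known. The alternatives were median centring, TPM, a pseudocount, other read minimums, 1.5-fold, bins of GC content and length, and, chosen after seeing the data, the smallest whole reads, both HBE libraries as reference and 7 ligands in place of 4.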

Additional observations from a re-analysis of the deposited data

How the results depend on the processing

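The members past 2-fold between A549 and HBE numbered 5 of 8, beside 30.6% of all genes. With at least 50 reads in both libraries they were 3 of 6, since TGFA and HBEGF then had too few reads in A549. The other pathway genes were then 9 of 29, 4 higher and 5 lower, in place of 15 of 39, and the share of all genes was 24.5%. NRG1, LRIG1, SPRY2 and SPRY4, higher in A549, then had too few reads in HBE by LIEA (32, 45, 39 and 34). GAB1 and SPINT1, lower in A549, had too few reads there (15 and 20). Rescaling rpkM to the same sum (TPM) left 3 of 8 members past 2-fold between LIEA and Smart-seq2 in place of 5, beside 47.2% of all genes. TGFA was then at -0.86 and HBEGF at -0.99. Between the lines, TPM made the other pathway genes 7 higher and 9 lower of 39, beside 33.6% of all genes past 2-fold. There rpkM gave 8 and 7, beside 30.6%, and median centring 10 and 5, beside 29.5%. The other 25 counts under alternatives stayed within 1.5 times their main value. Apart from the choice of HBE library, no direction past 2-fold was turned in those run. With HBE by Smart-seq2 in place of HBE by LIEA, no member past 2-fold changed direction, but PIK3R2, MST1R, CBL and DUSP6 did. PIK3R2 went from -1.03 to 2.58 log2 and MST1R from -1.11 to 1.29. With 7 ligands in place of 4, the ratio of ligands to EGFR was 1.03 in HBE by LIEA, 1.04 in A549 and 3.21 in HBE by Smart-seq2. As a share of reads, not of rpkM, TGFA led the ligands in HBE with 49.8% by LIEA and 45.0% by Smart-seq2, against 31.6% and 36.8% for AREG, and in A549 AREG was at 40.8%, EREG at 31.1% and TGFA at 18.9%. The spread between cultures is unknown, as no replicate could be left out. No paired analysis was possible because there was a single library for every condition.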
